A study of Mus musculus with 10 samples.

Results

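The proteasome genes were examined for ARID2 at their transcription start sites (TSSs) in mouse spermatogenic cells. Members were the protein-coding genes of the mm10 RefSeq annotation whose symbol begins with Psma to Psmg and a digit, or with Psme, or is Psmf1. This pattern found 51 of 21774 protein-coding genes. In 49 of them the gene encodes a subunit, activator, inhibitor or assembly chaperone of the proteasome. The remaining 2 fit the pattern by name alone. Psmc3ip encodes a recombination factor that acts in homologous pairing, and Psme3ip1 encodes a protein that binds the activator PSME3.

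Synchronized testes of CD1 mice were used at postnatal day (P) 28 and P28.5. All animals had received WIN 18,446, an inhibitor of retinoic acid synthesis (100 µg per g body weight, P1 to P10), and then 10 µl of retinoic acid at 10 µg/µl on P11. The ages lie 17 and 17.5 days after retinoic acid, when the tubules are enriched for pachytene, diplotene and metaphase spermatocytes. The cell mix differs between them. The paper reports more round spermatids, and a lower proportion of leptotene and zygotene spermatocytes, at P28.5 than at P28. CUT&RUN, in which an antibody tethers a nuclease that releases the DNA around its target, was done with 2 ARID2 libraries, 2 BRG1 libraries (anti-BRG1-G7 and anti-BRG1-abcam) and 1 library with no primary antibody at each age. How many animals stand behind a library is not given in the sources used here. ARID2 is a DNA-binding subunit found in the PBAF form of the SWI/SNF chromatin remodeler, and BRG1 is its ATPase. The authors took the ratio of each ARID2 library to the control, averaged the replicates and divided TSSs by k-means into cluster-1 (Cl-1, ARID2-enriched) and a cluster without enrichment. The values here are the deposited Cl-1 lists, which give a position and a gene name for each TSS, without signal, depth or strand. A gene was called listed when a row carried its name. With 1 list per age there is no spread between replicates and no test of the ages, and a gene outside the list has not been shown to lack ARID2. The identity of the cells could not be checked against marker genes, because the lists carry no expression values.

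The proteasome degrades proteins tagged with ubiquitin. Its 20S core is a barrel of alpha rings, which gate the entry, and beta rings, which hold the proteolytic sites. The 19S particle caps the barrel, with a base of ATPases that unfold the substrate and a lid that removes ubiquitin. Anaphase depends on it, because it destroys securin and cyclin B once the anaphase-promoting complex has tagged them. Male germ cells carry variants of their own. Psma8 encodes an alpha subunit of the testis that replaces the product of Psma7, and Psme4 encodes the activator PA200, known for the degradation of acetylated histones in spermatids.

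ARID2-enriched TSSs carried the names of 17 proteasome genes, 16 of them at P28 and 13 at P28.5. Of the plus-strand genes of the constitutive and testis 20S rings, 9 of 9 were listed at P28, and 5 of the 9 also at P28.5. This group joins the alpha ring and the beta ring and was not among the groups planned. The lists named 26.0% and 20.4% of all plus-strand coding genes. With the plus-strand tissue-specific beta genes Psmb8 and Psmb11, which were not listed, the 20S core had 9 of 11 at P28 (81.8%, 95% Wilson interval 52.3% to 94.9%). At P28.5 it had 5 of 11 (45.5%, 21.3% to 72%). The 4 that were listed at P28 and not at P28.5 were Psma4, Psma6, Psma8 and Psmb3. Outside the constitutive and testis rings, the P28 list held 7 of 20 plus-strand members (35.0%, 95% Wilson interval 18.1% to 56.7%). The P28.5 list held 8 of them (40.0%, 21.9% to 61.3%). The genes were the same apart from Psmd11, which was listed at P28.5 alone. None of the 22 members on the minus strand was listed at either age, where minus-strand genes at large were seldom listed.

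Shown first are the promoters of 4 members that stand for the patterns found, as RefSeq gives them for GRCm38.p6, the assembly behind mm10. Each runs 5′ to 3′ on the plus strand from 250 bases before an annotated start to 50 bases from it, so that base 251 is the start. Psma3 (chr12:70974373-70974672) was listed at both ages and had the most rows. Psma4 (chr9:54950609-54950908) was listed at P28 alone and had 2 positions. Psmd11 (chr11:80428365-80428664) was the single member listed at P28.5 alone. Psme4 (chr11:30771525-30771824) was listed at neither age. Capitals mark matches, on either strand, of 6 motifs that are described with the promoter features.
Psma3: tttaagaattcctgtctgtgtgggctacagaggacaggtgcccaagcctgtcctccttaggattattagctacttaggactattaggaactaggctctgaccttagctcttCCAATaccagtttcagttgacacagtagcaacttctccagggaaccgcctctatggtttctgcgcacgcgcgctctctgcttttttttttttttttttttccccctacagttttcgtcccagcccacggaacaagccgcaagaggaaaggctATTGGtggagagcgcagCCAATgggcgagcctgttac
Psma4: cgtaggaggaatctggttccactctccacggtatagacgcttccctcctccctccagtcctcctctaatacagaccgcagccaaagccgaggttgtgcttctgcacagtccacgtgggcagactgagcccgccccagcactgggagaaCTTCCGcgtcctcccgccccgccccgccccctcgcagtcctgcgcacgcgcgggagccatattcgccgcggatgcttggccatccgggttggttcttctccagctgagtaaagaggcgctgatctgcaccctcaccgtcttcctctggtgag
Psmd11: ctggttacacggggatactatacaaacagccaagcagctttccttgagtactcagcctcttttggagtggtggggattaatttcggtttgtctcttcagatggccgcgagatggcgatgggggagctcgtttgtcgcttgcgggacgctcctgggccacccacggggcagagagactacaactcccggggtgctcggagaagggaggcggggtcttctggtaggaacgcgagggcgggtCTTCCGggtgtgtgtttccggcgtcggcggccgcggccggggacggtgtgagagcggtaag
Psme4: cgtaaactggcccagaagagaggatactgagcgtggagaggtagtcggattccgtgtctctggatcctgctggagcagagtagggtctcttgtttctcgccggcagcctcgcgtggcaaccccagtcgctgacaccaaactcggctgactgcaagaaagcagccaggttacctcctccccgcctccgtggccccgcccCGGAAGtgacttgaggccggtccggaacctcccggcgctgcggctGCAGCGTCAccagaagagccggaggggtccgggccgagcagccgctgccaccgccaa

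The listed TSS lies at base 251 of the Psma3 and Psmd11 promoters and at bases 208 and 251 of the Psma4 promoter. The Psme4 promoter holds no listed TSS. It holds the dinucleotide CG 25 times in its 300 bases, near the 23 of Psma4 and the 26 of Psmd11 and above the 10 of Psma3. Psma3 holds 3 CCAAT matches, at bases 112, 264 and 281, and the latter pair lie within the 50 bases from the start. Psma4 and Psmd11 each hold 1 CGGAAG match, both on the minus strand, at base 149 and at base 240. Psme4 holds CGGAAG at base 199 and TGACNNNGC, on the minus strand, from base 244 to base 252, across its start. Psmb2 had 2 positions at both ages and is named only, and no sequence is shown for Psma8.

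Which strand a gene lies on set most of what the lists could show. A plus-strand transcript began at the position of 4893 rows at P28 and of 4361 at P28.5. A minus-strand transcript began at that of 9 rows and 8 rows and ended at that of 1482 rows and 122 rows. No annotated transcript end matched the other rows, 5174 in the P28 list and 4027 in the P28.5 list, and their strand cannot be read from the position. The P28 list named 26.0% of the coding genes on the plus strand and 7.61% of those on the minus strand, and the P28.5 list named 20.4% and 2.86%. Members on the minus strand were listed in 0 of 22 cases at each age, for which 13.6% is the upper limit, and this limit includes the minus-strand background at both ages. Their absence therefore says nothing about ARID2 at their promoters. The 29 plus-strand members were compared with plus-strand genes.

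At P28, 16 of 29 plus-strand members were listed (55.2%, 95% Wilson interval 37.5% to 71.6%), against 26.0% of plus-strand genes. At P28.5, 13 of 29 were listed (44.8%, interval 28.4% to 62.5%), against 20.4%. Both ages held 12 of them (41.4%, interval 25.5% to 59.3%), against 14.8%. Over both strands the shares were 31.4% of 51 at P28, 25.5% at P28.5 and 23.5% at both, against 16.8%, 11.6% and 8.48% of all protein-coding genes. The shares of members were above the background at both ages, and the lower ends of the plus-strand intervals were above it as well. These intervals cover counting error over genes only, and genes are not replicates of the experiment.

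**Figure D1:**
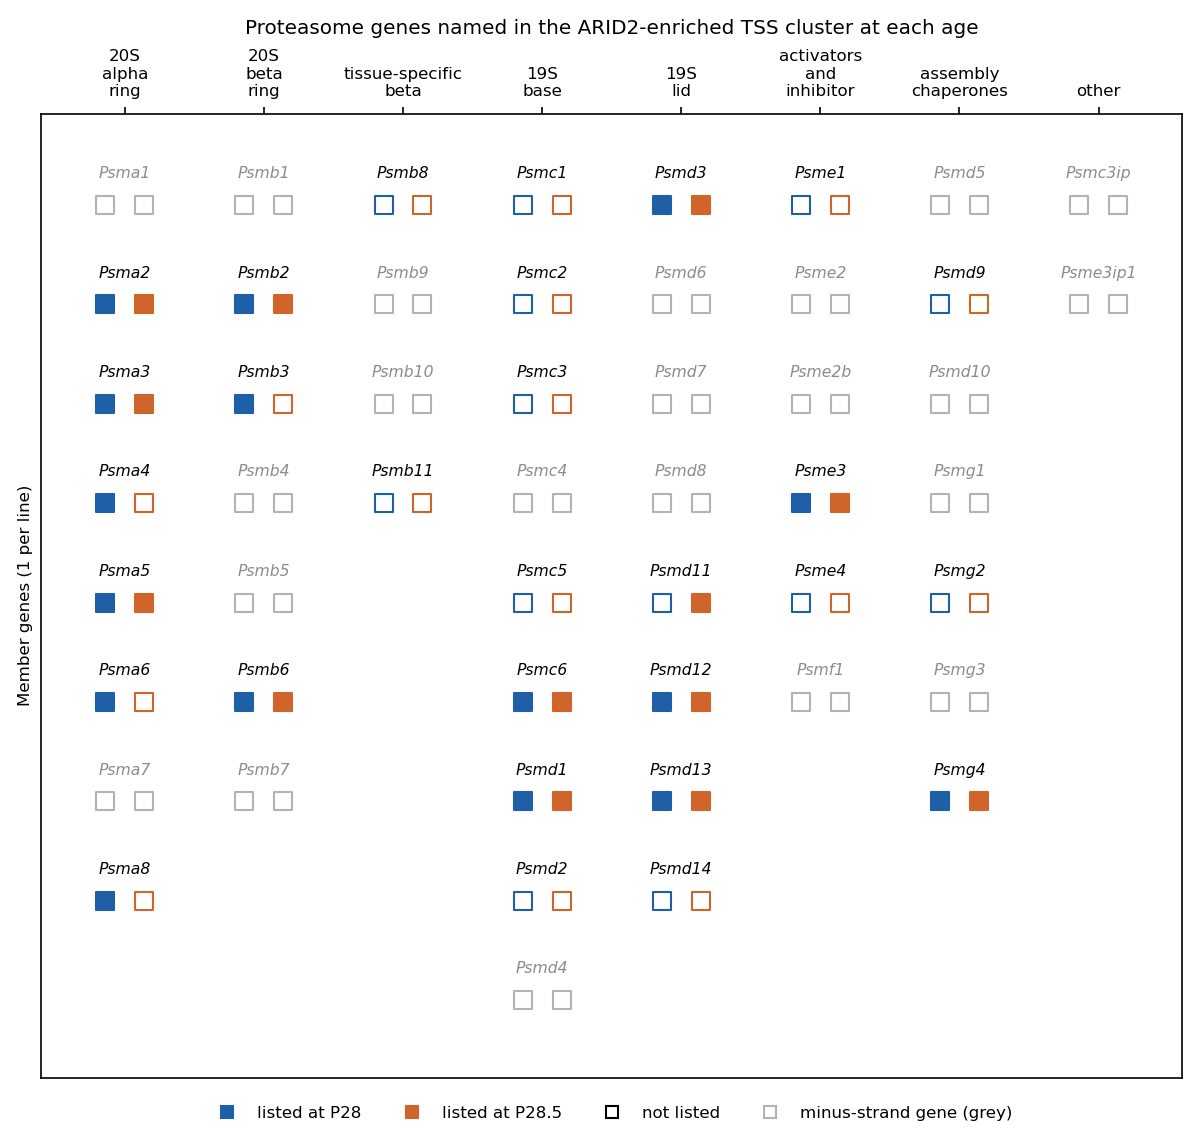
Every member by subcomplex (columns), with a pair of squares for P28 (blue) and P28.5 (orange), filled where the gene was named in the ARID2-enriched cluster and open where it was not. Minus-strand genes are in grey. All filled squares belong to plus-strand genes, and the 20S alpha and beta columns hold all 4 genes that were filled at P28 alone.

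Of the 8 genes of the alpha ring, the P28 list held 6 and the P28.5 list 3. Psma2 (GeneID 19166), Psma3 (GeneID 19167) and Psma5 (GeneID 26442), all constitutive alpha subunits, were listed at both ages. Psma2 had 1 row at each age, at 14613242 on chromosome 13, its 1 annotated 5′ end. Psma5 had 1 row at each age at 108256926 on chromosome 3, again its 1 annotated 5′ end. For Psma3, 3 rows at each age stood at 1 position, 70974623 on chromosome 12, where 3 of its 6 transcripts start. Its other 3 annotated 5′ ends, at 70969283, 70969948 and 70974662, had no row. The row count thus gave the number of transcripts at a start and not a level of ARID2.

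Psma4 (GeneID 26441), also a constitutive subunit of the alpha ring, had 2 rows at P28, at 54950816 and 54950859 on chromosome 9. The second is an annotated 5′ end, and the first lies 35 bp from one, in the first exon. At P28.5 the nearest listed TSS belonged to Ireb2 and was 87026 bp away. Psma6 (GeneID 26443) has 2 annotated 5′ ends, 55384222 and 55398825 on chromosome 12. Its 1 row at P28 stood at the downstream one, and the nearest listed TSS at P28.5 was 437401 bp away. Neither gene had a listed TSS of any name within 2000 bp at P28.5.

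Psma8 (GeneID 73677), the testis alpha subunit, is a plus-strand gene of chromosome 18 (14706135 to 14762301). It was listed at P28 alone, with 1 row at 14706347. This position lies 196 bp downstream of the nearest annotated 5′ end of Psma8, in the first exon of a predicted transcript of the gene, and was the farthest from a 5′ end of all positions under members' names. The TSS of Taf4b, 77050 bp away, was the nearest one listed at P28.5. Psma7 (GeneID 26444), the constitutive counterpart of Psma8, is a minus-strand gene and had no row. The nearest listed TSS to its 5′ end, at both ages, was that of Lsm14b, 17477 bp away. Whether ARID2 differed between this pair of paralogues therefore cannot be told from the lists. Psma1 (GeneID 26440), the other minus-strand gene of the alpha ring, was 469650 bp and 762062 bp from a listed TSS.

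Of the 7 constitutive genes of the beta ring, 3 were in the P28 list and 2 in the P28.5 list. Psmb2 (GeneID 26445), a structural beta subunit, had 2 rows at each age, at 126677634 and 126677643 on chromosome 4, the second an annotated 5′ end and the first 3 bp upstream of its other 5′ end. Psmb6 (GeneID 19175), which carries the caspase-like site, had 1 row at each age, at 70525357 on chromosome 11, one of its 2 annotated 5′ ends. Psmb3 (GeneID 26446), a structural subunit, was listed at P28 alone, at its 1 annotated 5′ end, 97703434 on chromosome 11. At P28.5 the nearest listed TSS to Psmb3 was 41463 bp away. Psmb1, Psmb4, Psmb5 and Psmb7 lie on the minus strand and had no row. Among these are the genes of the chymotrypsin-like site (Psmb5) and of the trypsin-like site (Psmb7). Of the constitutive proteolytic sites, only the caspase-like one was thus open to the comparison.

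The tissue-specific beta subunits were absent from both lists. Psmb8, Psmb9 and Psmb10 encode the catalytic subunits of the immunoproteasome, and Psmb11 encodes that of the thymus. Psmb8 and Psmb11 are plus-strand genes, with the nearest listed TSS 75363 bp and 60861 bp away at both ages. With 2 genes that could have been listed, the Wilson interval runs from 0% to 65.8%. That of the plus-strand genes of the constitutive and testis rings was 70.1% to 100% at P28, above it, and 26.7% to 81.1% at P28.5, which overlaps it. Taken apart at P28, the intervals of the plus-strand alpha ring (61% to 100%) and beta ring (43.9% to 100%) overlap it as well. The counts are thus too small to set the tissue-specific beta genes apart from the beta ring.

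In the 19S base, 2 of 9 genes were listed, the same 2 at both ages. Psmd1 (GeneID 70247), a large scaffold subunit, had 1 row at each age at its 1 annotated 5′ end, 86064619 on chromosome 1. Psmc6 (GeneID 67089), an ATPase, had 1 row at each age at 45329824 on chromosome 14, one of its 2 annotated 5′ ends, which lie next to each other. The other plus-strand ATPase genes, Psmc1, Psmc2, Psmc3 and Psmc5, had no row, and neither had the scaffold gene Psmd2. Thus 1 of 5 plus-strand ATPase genes was listed at each age, with a Wilson interval of 3.62% to 62.4% that holds the plus-strand background of 26.0% and 20.4%. Psmc4 and the ubiquitin receptor gene Psmd4 lie on the minus strand.

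Of the 8 genes of the 19S lid, 3 were in the P28 list and 4 in the P28.5 list. Psmd3 (GeneID 22123), Psmd12 (GeneID 66997) and Psmd13 (GeneID 23997), all structural lid subunits, were listed at both ages with 1 row each, at 98682554 and 107479528 on chromosome 11 and 140882394 on chromosome 7. Each of these is the 1 annotated 5′ end of its gene. Psmd11 (GeneID 69077), a lid subunit that braces the lid against the core, had 1 row at P28.5, at 80428615 on chromosome 11, one of its 2 annotated 5′ ends. At P28 the nearest listed TSS to Psmd11 was that of Zfp207, 45324 bp away. Psmd14, which encodes the deubiquitinase of the lid, is a plus-strand gene and had no row, with 83944 bp to the nearest listed TSS at P28 and 118529 bp at P28.5. Psmd6, Psmd7 and Psmd8 are minus-strand genes. The plus strand holds 5 of the lid genes, so that 3 of 5 were listed at P28, with a Wilson interval of 23.1% to 88.2% that holds the background of 26.0%, and 4 of 5 at P28.5, with an interval of 37.6% to 96.4% above the 20.4% of that age.

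**Figure D2:**
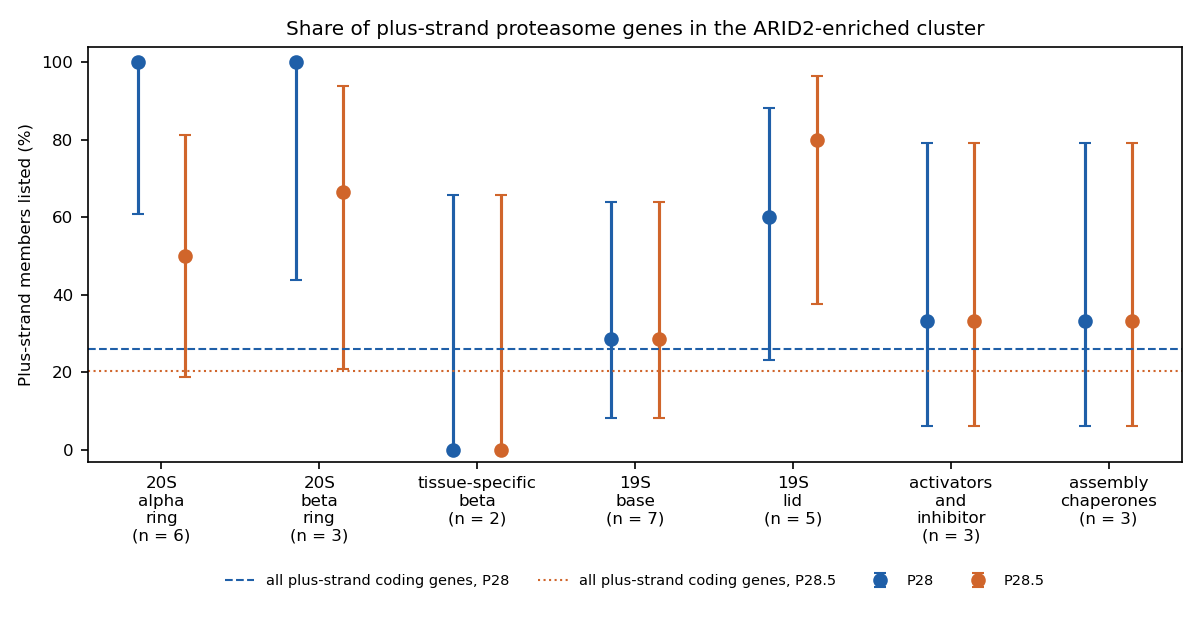
Share of plus-strand members named in the ARID2-enriched cluster (y axis, percent) for each subcomplex at P28 (blue) and P28.5 (orange), with 95% Wilson intervals. Dashed and dotted lines give the share over all plus-strand protein-coding genes, 26.0% at P28 and 20.4% at P28.5. The 20S alpha and beta groups, without the tissue-specific beta genes, stood at 100% at P28. The intervals of the base, activators, chaperones and tissue-specific beta genes span the lines at both ages. So do that of the alpha ring at P28.5 (18.8% to 81.2%) and that of the lid at P28 (23.1% to 88.2%).

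Of the activators and the inhibitor, 1 of 6 was listed, at both ages. Psme3 (GeneID 19192) encodes the nuclear activator PA28 gamma and had 1 row at each age at 101316251 on chromosome 11, 38 bp into its first exon from the nearest annotated 5′ end. Psme1 and Psme2, which encode the PA28 alpha and beta chains that act with the immunoproteasome, had no row, and neither had Psme2b, a copy of Psme2. Of these, Psme1 alone is a plus-strand gene. Psme4 (GeneID 103554), a plus-strand gene of chromosome 11 (30771775 to 30881150), has 3 annotated 5′ ends and was in neither list. The nearest listed TSS at P28 was that of Gpr75, at a distance of 75505 bp, and at P28.5 that of Rtn4, at a distance of 1078877 bp. Of the testis-enriched pair, Psma8 was thus listed at P28 and Psme4 at neither age. Psmf1, which encodes the inhibitor PI31, is a minus-strand gene.

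Of the 7 assembly chaperones, Psmg4 (GeneID 69666), a chaperone of the alpha ring, was listed at both ages. It had 2 rows at each age at 34162964 on chromosome 13, the 5′ end of both of its transcripts. The other plus-strand chaperone genes, Psmg2 and Psmd9, had no row, with 120124 bp and 116258 bp to the nearest listed TSS at P28. Psmg1, Psmg3, Psmd5 and Psmd10 lie on the minus strand. Psmd10, which encodes gankyrin, is the 1 X-linked member, and no listed TSS lay closer to it than 17746291 bp at P28 and 10846571 bp at P28.5.

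Between the ages, a larger share of the listed members was common to both lists than of plus-strand genes at large, a difference that was not tested. Of 17 plus-strand members listed at either age, 12 were listed at both (70.6%), against 47.0% of 3433 plus-strand genes. The 12 shared members made up 75.0% of the P28 members and 92.3% of the P28.5 members, against 57.0% and 72.8% for plus-strand genes. The P28 list alone held 4 of the 29 (13.8%, against 11.2% of plus-strand genes), and the P28.5 list alone held 1 (3.45%, against 5.54%). Members' names stood beside 18 positions at P28, and beside 14 at P28.5, with 13 bases in common. All of the single-age members at P28 were 20S genes, and the 1 at P28.5 was a lid gene. In the 19S particle, 5 of 12 plus-strand genes were listed at both ages, none in the P28 list alone and 1 in that of P28.5 alone. Each list is 1 k-means cluster on averaged replicates, and how near a member came to that cluster at the age at which it was not listed is not shown by the lists. The paper also reports many more called ARID2 peaks at P28 than at P28.5. A larger share of its ARID2-enriched TSSs overlapped a peak at P28. Whether this bears on the genes listed at a single age was not tested.

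**Figure D3:**
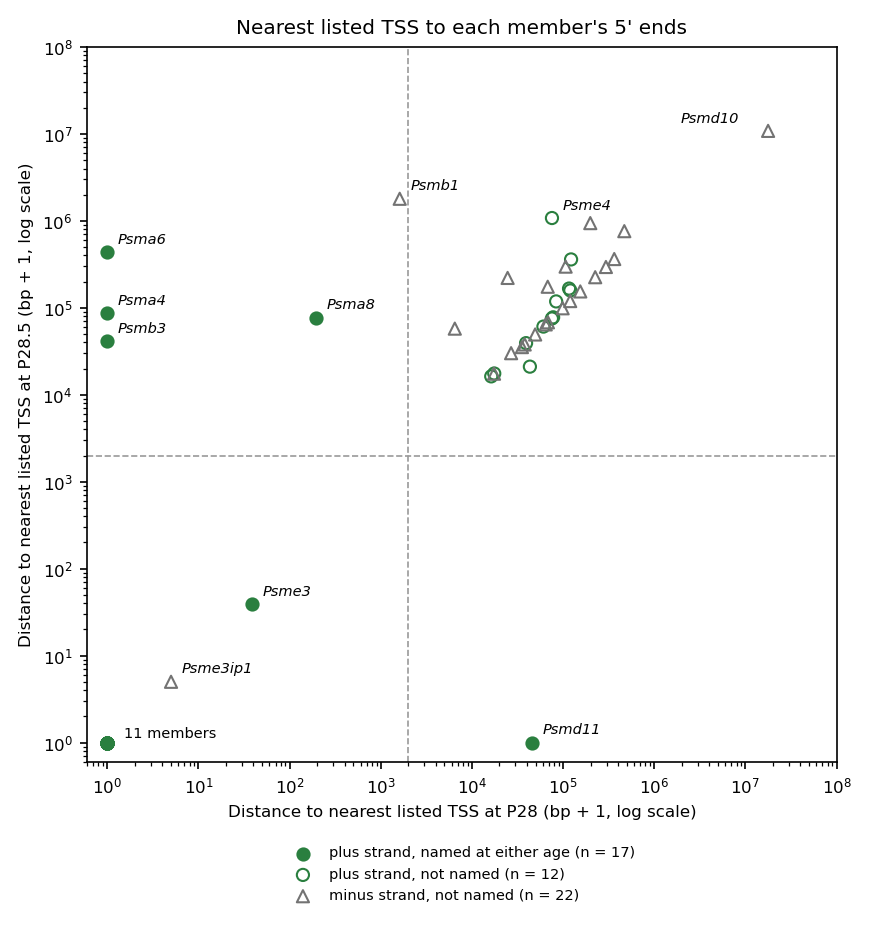
Distance from each member's annotated 5′ ends to the nearest listed TSS of any name at P28 (x axis) and P28.5 (y axis), in bp plus 1 on log scales. Circles are plus-strand and triangles minus-strand members, filled where a row carried the member's name, and dashed lines mark 2000 bp. At the lower left, 11 members were at 0 bp at both ages. The 12 plus-strand members that were not named lay at least 16282 bp from a listed TSS. Each row is a TSS under a gene name, so these distances do not locate ARID2.

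The listed positions were nearly all at the members' own starts. Of 19 positions under members' names, 15 equalled a RefSeq 5′ end of the member and 4 lay 3 to 196 bp from one. All but the outer position of Psmb2 lay in the first exon. The 12 plus-strand members with no row were far from any listed TSS, at 16282 to 122372 bp at P28 and 16282 to 1078877 bp at P28.5. No plus-strand member lay between 196 bp and 16282 bp from a listed TSS at P28. Counting by distance in place of name gave the same call for each plus-strand member. By distance, 25.0% of plus-strand genes were called at P28 and 20.9% at P28.5. Each row is a TSS under a gene name, so a row near its own gene was largely fixed in advance, as was the match of both ways of counting. These distances describe the lists and do not locate ARID2.

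For minus-strand members, neighbours gave the few listed positions nearby. Psme3ip1 (GeneID 102122) had 2 listed positions within 2000 bp at both ages, 94601941 and 94601958 on chromosome 8, both under the name of Rspry1. They lie 21 bp and 4 bp from a 5′ end of Psme3ip1, and Rspry1 is transcribed in the other direction from 94601941, so that the signal there cannot be assigned to 1 of the pair. Psmb1 (GeneID 19170) had a listed position at P28, 15499888 on chromosome 17, which is the 5′ end of Tbp and lies 1612 bp upstream of Psmb1. The remaining 20 minus-strand members had none within 2000 bp of a 5′ end. At 29174187 on chromosome 7, a TSS was listed at P28 that equals the 3′ end of Psmd8 (GeneID 57296) and carries the name of Ggn, a germ cell gene whose nearest 5′ end is 2941 bp away. Psmd8 was the only minus-strand member with a listed position within 2000 bp of a 3′ end. A start of a protein-coding gene on the opposite strand, within 1000 bp on either side, was annotated for 12 of 51 members (23.5%). The share was 12.2% of protein-coding genes. Noncoding starts were not counted. Among minus-strand members it was annotated for 5, of which Psme3ip1 had a listed neighbour. Among listed members, Psma2, Psma4, Psmb3 and Psmd13 have such a start at 205, 95, 1000 and 85 bp, of Mrpl32, AY074887, Pcgf2 and Sirt3. None of these neighbours was listed, which says little, because they lie on the minus strand, where genes were seldom listed. The signals of the genes in each pair cannot be told apart.

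The proteasome promoters were rich in CpG. Observed over expected CpG, taken within 500 bp of the outermost 5′ end, had a median of 0.688 over the 51 members (0.161 to 1.03), against 0.516 over all protein-coding genes. Among plus-strand members it did not separate those listed at either age (median 0.677, 0.222 to 0.911, 17 genes) from those listed at neither (median 0.672, 0.393 to 1.03, 12 genes). In the fourth of 5 quintiles of all genes, the lists held 10 and 9 of 14 plus-strand members (71.4% and 64.3%), against 39.6% and 33.3% of plus-strand genes in that quintile. In the fifth, the most CpG-rich, 1 of 6 was listed at P28 and 2 at P28.5 (16.7% and 33.3%), against 46.2% and 47.0%. The members listed in the fifth quintile were Psma5 and Psmd11, and those not listed at either age were Psmc1, Psmc2, Psme4 and Psmg2. The share of all plus-strand genes listed thus rose with CpG content up to the fifth quintile, and that of the members, with 6 genes in the last quintile, did not. In the third, the lists held 4 and 2 of 8 plus-strand members (50.0% and 25.0%), against 21.4% and 12.1%. The second held 1 such member and the first none, and there plus-strand genes were seldom listed (8.55% and 3.50% in the first). All plus-strand genes are thus a low background for these members. An excess over genes of like CpG content was not tested.

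**Figure D4:**
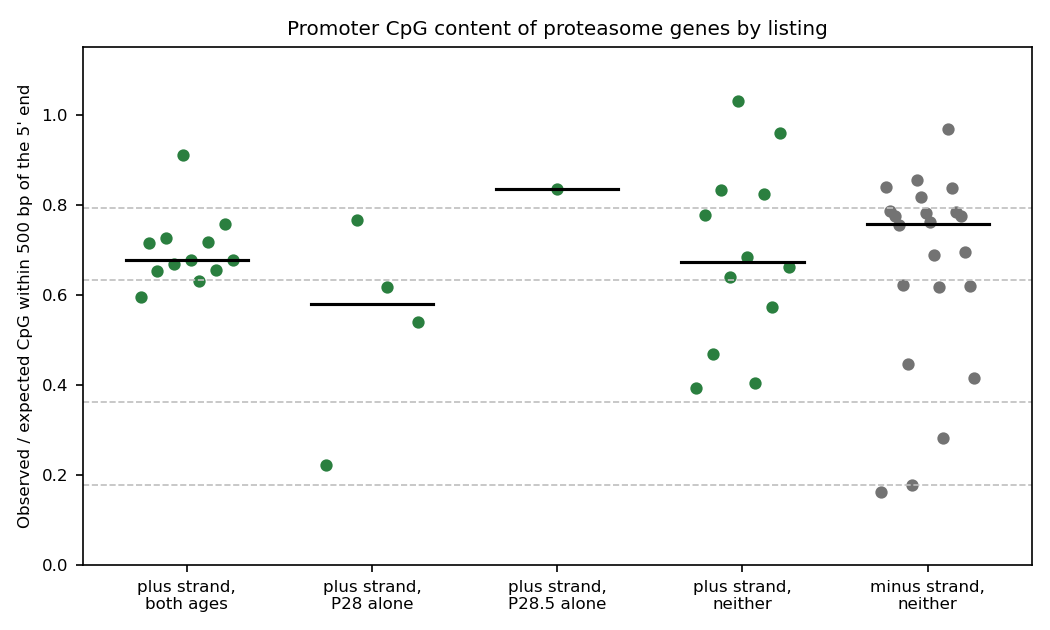
Observed to expected CpG ratio within 500 bp of each member's outermost 5′ end (y axis), by strand and listing, with 1 point per gene and a bar at the median. Dashed lines divide all protein-coding genes into quintiles. The 12 plus-strand members listed at both ages lay between 0.595 and 0.911, and the 12 listed at neither spanned 0.393 to 1.03.

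For a few genes the outermost 5′ end is not the one that was listed. The ratio of Psma6 was 0.222 there and 0.704 at its listed start, and that of Psma3 was 0.677 and 0.823. With the highest ratio over all 5′ ends of a gene in place of the outermost, a choice made after seeing the data, the most CpG-rich quintile held 4 plus-strand members, of which 1 was listed at P28 (25.0%, against 46.4% of plus-strand genes) and 2 at P28.5 (50.0%, against 47.2%). With 4 members in that quintile, these shares are too coarse to set the members apart from its other genes at either age. In the fourth quintile 7 of 10 were then listed at P28 (70.0%, against 41.2% of plus-strand genes), and in the third 8 of 13 (61.5%, against 27.1%).

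Promoter sequence was available from RefSeq for 43 of the 51 members, and 6 motifs were searched on both strands, with overlapping matches counted and each palindrome counted once. A gene counted as holding a motif when any of its promoters did. CGGAAG, the core of ETS factor sites, was found in 24 of 43 members (55.8%), against 23.5% of 17492 protein-coding genes. Among plus-strand members it was found in 9 of 14 that were listed and in 6 of 10 that were not. CCAAT, bound by NF-Y, was found in 16 members (37.2%, against 42.3%). TGACNNNGC, the core of the antioxidant response element through which NFE2L1 drives proteasome genes, was found in 6 (14.0%, against 14.8%), namely Psmb5, Psmb6, Psmc6, Psmd12, Psme4 and Psmd9. TATAAA was found in 4 (9.30%, against 14.8%) and the palindrome of nuclear respiratory factor 1 in Psma2 and Psmg1 (2 of 43, 4.65%, against 1.47%). TGACGTCA, the cAMP response element, was found in none, against 2.54% of genes. A match of letters is a description of the window and not a bound site.

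By chromosome, chromosome 11 held 10 members, more than any other. Of its 8 plus-strand members, 5 were listed at each age and 4 at both, namely Psmb6, Psmd3, Psmd12 and Psme3. Psmb3 was listed only at P28 and Psmd11 only at P28.5, and Psmc5 and Psme4 were not listed. The share over the 779 plus-strand coding genes of chromosome 11 was 28.9% at P28, 23.7% at P28.5 and 18.2% at both.

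Genes that work with the proteasome without being members were looked up in the same way, from a list of 27 chosen by function, of which 26 were matched in the annotation. This list was chosen with earlier results of these data known. At P28, 10 of 26 were listed (38.5%, interval 22.4% to 57.5%), against 16.8% of all protein-coding genes. At P28.5, 8 were (30.8%, interval 16.5% to 50.0%), against 11.6%. The 10 include Nfe2l1, whose rows lie at its 3′ end and not at its promoter. Both counts include Rps27a, whose signal cannot be assigned to it. On the plus strand 7 of 12 were listed at each age (58.3%), against 26.0% and 20.4%. The genes of the deubiquitinase UCHL5, the shuttle factor RAD23B, the deglycosylase NGLY1, the proteasome-binding protein ZFAND5 and the ubiquitin precursors Ubb and Rps27a were listed at both ages. Rps27a is the 1 minus-strand gene of these, and its rows stood 156 bp upstream of its 5′ end. Clhc1 was also listed within 2000 bp of that end at both ages, so that the signal cannot be assigned to Rps27a. Adrm1, which encodes the 19S ubiquitin receptor to which UCHL5 binds, was listed at P28 alone, with 2 positions, at 0 bp and 98 bp from a 5′ end. Ubqln4, a shuttle factor gene, was also listed at P28 alone. At P28.5 alone were Ube3c, a ubiquitin ligase gene of the proteasome, and Akirin2, whose product brings proteasomes into the nucleus. Pomp, the gene of the chaperone that matures the 20S core, was in neither list, although it lies on the plus strand.

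Both genes of the factors that drive proteasome transcription lie on the minus strand and carried rows at P28 alone. Nfe2l2 had 1 row, 107 bp from a 5′ end. Nfe2l1 had 7 rows, at 96817413 and 96817414 on chromosome 11. These lie 1 bp and 0 bp from a 3′ end of Nfe2l1 and at least 6517 bp from a 5′ end, so that its listing marks the end of the gene and not its promoter.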

How the data were processed

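CUT&RUN libraries for ARID2, BRG1 and a control without primary antibody were made from synchronized P28 and P28.5 testes. The authors trimmed reads with TrimGalore, aligned them to mm10 with Bowtie2, made coverage with deepTools without blocklisted regions and duplicates, scaled it with csaw factors, took log2 ratios to the control, averaged replicates and clustered RefSeq TSSs by k-means. The deposited values used here are positions: each row of the 2 lists is 1 TSS of cluster-1, from averaged libraries. The lists give no depth per library or per TSS, while the paper's reporting summary gives the reads of each library. BRG1 libraries, tracks and peaks were not analysed here.

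Positions were compared, as deposited, with the transcripts of 49598 RefSeq genes on GRCm38.p6, since the rows that match an annotated end do so without an offset (5174 rows at P28 and 4027 at P28.5 match none). Of 4095 gene names at P28, 3985 matched as written and 100 by a synonym of 1 gene, and of 2707 at P28.5, 2640 and 62 did. Wilson intervals (95%) were given for shares, and 3 counts were taken as the limit of a 0. No test was run. Every member is named. Pathway genes that are listed are named, as is Pomp, chosen after its values were seen. Promoters were shown for Psme4 and for the members with most listed positions in each listing class, and Psma3, with the most rows, stands for Psmb2, whose promoter was not in the sequence table. The members and lists were chosen with earlier results of these data known. Distance, interval, CpG and motif functions were tested on simulated data. Software was Python 3.11.15 with numpy 2.4.6, scipy 1.17.1 and, for plots, matplotlib 3.10.9. The CpG ratio at the most CpG-rich 5′ end was added after seeing the data.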

Additional observations from a re-analysis of the deposited data

How the results depend on the processing

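The share of listed members left its interval only when members were split by strand. The name and distance settings recount mostly the same rows, and few genes were removed or added. Under these settings the share had little room to move. With plus-strand members alone it was 55.2% at P28, 44.8% at P28.5 and 41.4% at both ages, and with minus-strand members alone it was 0% in each listing class (P28, P28.5, both ages, and either age alone). Of 40 values under 8 alternatives, the other 32 stayed within the 95% Wilson interval of the main share. These were names as written, listed positions within 2000 bp or 500 bp, a name with a position within 2000 bp, members without Psmc3ip and Psme3ip1, members with 6 close partners added (Adrm1, Sem1, Pomp, Usp14, Uchl5 and Ecpas, 57 genes in all), and the plus-strand shares at 1 age alone, 13.8% for P28 and 3.45% for P28.5. Without olfactory and vomeronasal receptors the background rose to 17.8% at P28 and 12.4% at P28.5. No paired analysis was possible because each list was made from averaged replicates, and for the same reason no replicate could be left out. The lists give no depth, so how near an unlisted TSS came to the cluster is unknown.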
